A study of Homo sapiens with 6 samples.

Results

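A set of 9 genes of the epithelial tight junction were followed in TE-1 cells after knockdown of the translation initiation factor subunit EIF3C. They were chosen by name: the claudins CLDN1, CLDN3, CLDN4 and CLDN7, the membrane proteins OCLN, MARVELD2 and F11R, and the cytoplasmic scaffolds TJP1 and CGN. Of these 9 genes, 8 had at least 1 probe set annotated to that gene alone, and F11R (JAM-A) is not analysed here. The 8 genes stand among 18132 genes with such a probe set, of which 13599 were tested, and all 8 passed the filter on low values. TE-1 is a cell line from a human oesophageal squamous cell carcinoma. Expression was measured with an Affymetrix array on 3 samples of parental TE-1 cells (control) and 3 samples of a stable EIF3C knockdown clone. The labels call the replicates biological but do not say whether they were separate cultures. The knockdown samples come from 1 clone, and the control cells are described as parental with no control construct. Clone and knockdown therefore cannot be told apart. A p-value here speaks only to how much these 6 samples vary, and that variation may be technical.

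Tight junctions seal the space between neighbouring epithelial cells near their apical side. Claudins polymerise into the strands that decide which ions and solutes pass, occludin and tricellulin (MARVELD2) are MARVEL-domain proteins of the same strands, and ZO-1 (TJP1) and cingulin (CGN) tie the strands to the actin cytoskeleton. In stratified squamous epithelium such as that of the oesophagus they form part of the barrier of the upper cell layers.

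The 250 bases before the transcription start are shown for the claudins at the ends of the response and for the neighbouring pair CLDN3 and CLDN4, because these members moved in opposite directions. Sequences are from RefSeq (GRCh38.p14), 5′ to 3′ on the gene's strand. They are CLDN1 at chr3:190322447-190322696 (minus strand), CLDN3 at chr7:73770271-73770520 (minus strand) and CLDN4 at chr7:73830746-73830995 (plus strand). OCLN is added at chr5:69492297-69492546 (plus strand), before the first of its 2 annotated starts, and CLDN7 by the 30 bases before the second of its 2 starts, chr17:7262479-7262508 (minus strand). Capitals mark the E-box letters CAGGTG on either strand (CACCTG on the other), which are bound by repressors of the SNAI and ZEB families.
CLDN1: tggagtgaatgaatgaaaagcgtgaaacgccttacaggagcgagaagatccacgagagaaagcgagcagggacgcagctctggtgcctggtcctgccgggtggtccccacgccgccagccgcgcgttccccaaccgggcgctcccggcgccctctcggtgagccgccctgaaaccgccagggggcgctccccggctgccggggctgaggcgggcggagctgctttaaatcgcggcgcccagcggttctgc
CLDN3: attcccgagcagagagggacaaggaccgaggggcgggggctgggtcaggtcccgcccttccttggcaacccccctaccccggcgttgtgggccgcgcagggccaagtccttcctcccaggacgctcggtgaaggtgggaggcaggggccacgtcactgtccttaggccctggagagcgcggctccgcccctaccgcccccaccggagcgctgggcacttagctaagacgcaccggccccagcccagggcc
CLDN4: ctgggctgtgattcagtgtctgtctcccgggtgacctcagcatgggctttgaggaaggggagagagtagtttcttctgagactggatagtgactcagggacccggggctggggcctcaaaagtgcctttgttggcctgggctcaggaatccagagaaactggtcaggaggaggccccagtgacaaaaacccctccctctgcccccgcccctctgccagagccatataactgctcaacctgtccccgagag
OCLN: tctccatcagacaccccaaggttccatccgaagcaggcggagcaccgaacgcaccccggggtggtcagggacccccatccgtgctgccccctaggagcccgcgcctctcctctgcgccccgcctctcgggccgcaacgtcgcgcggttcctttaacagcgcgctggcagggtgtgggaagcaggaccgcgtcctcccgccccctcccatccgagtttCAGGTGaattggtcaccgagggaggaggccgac
CLDN7: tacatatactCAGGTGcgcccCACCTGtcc

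No CAGGTG stood in the windows of CLDN1, CLDN3 and CLDN4. The whole 250-base window of the second CLDN7 start held 4 matches, which began 174, 135, 20 and 9 bases before the start, and the last 2 are those shown. The window of the first CLDN7 start held no match. Each of the 2 OCLN windows held 1 match, as did 1 of 4 windows of TJP1. Matches were found in 4 of 13 windows of the 8 genes, against 17.5% of 35116 windows of the same length in the RefSeq table. The GC box GGGCGG, read on both strands, was in 10 of 13 windows and in 42.6% of all windows. The letters AACCNGTT, bound by grainyhead-like factors and also read on both strands, were found once, in the window of CGN, 27 bases before the start. They occur in 1.49% of all windows. These matches describe letters in the windows and show neither binding nor its absence.

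EIF3C was low in the samples labelled knockdown. On its brightest probe set the log2 signal was 10.69, 10.60 and 10.56 in control and 8.42, 8.41 and 8.49 in knockdown, which left 22.1% of the control level. The other 2 bright probe sets left 22.6% and 21.5%, and 2 dim ones, with control means of 4.39 and 4.53, left 66.9% and 51.1%. All 5 were called lower, and none separates EIF3C from its near copy EIF3CL. Array medians lay between 6.09 and 6.11, and arrays of 1 group correlated at 0.9977 to 0.9985 over all probe sets, against 0.9824 to 0.9846 for arrays of different groups. For the 85 control probe sets of non-human sequence, the log2 difference between knockdown and control ran from -0.22 to 0.20. Of the simple epithelial markers KRT7, KRT8, KRT18, KRT19 and EPCAM, control means ran from 11.89 to 13.52. The squamous markers KRT5, KRT14, SOX2 and PKP1 had control means of 5.19 to 5.91 and DSG3 8.14, and no detection calls were used that could say which of these dim signals are present. These epithelial markers also differed between the groups. Of the squamous markers, DSG3, a desmosomal cadherin, fell by 0.70 and SOX2 by 0.25, while KRT5 (0.18), KRT14 (-0.18) and PKP1 (-0.07) did not pass. KRT5 passed with quantile normalization (adjusted p = 0.0498), and its other probe set was called higher, at 0.43. The signals of these 5 squamous markers summed on the linear scale to 484 to 510 in control and 357 to 387 in knockdown. DSG3, the brightest of them, went from a mean of 8.14 to 7.45 and weighs most in that sum. The squamous markers TP63, KRT6A and KRT17 had no probe set annotated to that gene alone. Of the simple epithelial markers, KRT19 fell by 0.55 and KRT7 by 0.31, while KRT8 rose by 0.26, KRT18 by 0.12 and EPCAM by 0.21, with sums of 36603 to 37560 and 36736 to 37000. Their part in the differences of the junction genes was not tested. Of the fibroblast markers 5 of 7, of the leukocyte markers 4 of 5 and of the endothelial markers 1 of 6 with a probe set lay under the filter. Summed in the same way, these markers gave 179 to 197 in control and 181 to 195 in knockdown for fibroblasts, 71 to 84 and 68 to 77 for leukocytes, and 286 to 309 and 304 to 313 for endothelium. Of the endothelial markers, CDH5 rose by 0.46 with both probe sets higher, and KDR fell by 0.26. The fibroblast marker COL1A1 fell by 0.21, within the range of the non-human controls, and did not pass with quantile normalization (adjusted p = 0.0531). Control means of these 3 were 5.84, 5.44 and 5.60.

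Knockdown cells had more CLDN1 transcript and less CLDN4 transcript, with smaller rises of CLDN3 and OCLN and smaller falls of TJP1 and CGN. The fall of TJP1 is that of its brighter probe set, while its other probe set rose. The rises of CLDN3 and OCLN were no larger than the largest difference among the non-human controls, and OCLN passed narrowly. CLDN7 and MARVELD2 did not pass the test. In all, 3 of the 8 genes rose and 3 fell (limma with Benjamini-Hochberg adjustment over 13599 genes, adjusted p under 0.05). Over all genes tested, 66.5% passed, 32.4% higher and 34.1% lower, so 6 of 8 (75%) is near the background and is no result about these genes as a set. The groups did not overlap for 7 of the 8 genes, which was so for 70.3% of all genes tested. The median log2 difference of the 8 was -0.02, beside -0.03 for all genes tested. The plot of signal on each array shows these levels.

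**Figure D1:**
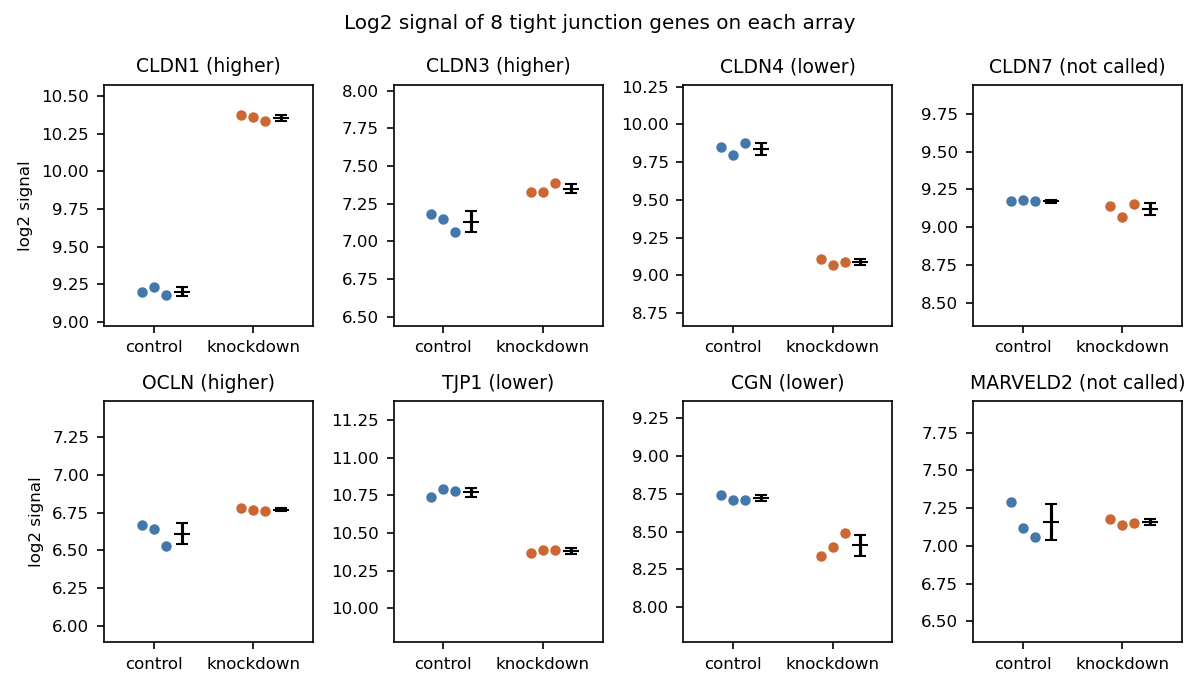
Log2 signal (vertical axis) of the 8 measured genes on the 3 control and 3 knockdown arrays, with mean and SD beside the points. Panels span the same number of log2 units, but each is centred on its own gene, so heights do not compare between panels. CLDN1 lies at 9.18 to 9.23 in control and 10.33 to 10.37 in knockdown, CLDN4 at 9.80 to 9.88 and 9.07 to 9.11, and the points of MARVELD2 overlap.

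CLDN1 encodes a barrier-forming claudin whose loss in mice makes the skin leak water. Its log2 signal was 9.20, 9.23 and 9.18 in the control samples and 10.37, 10.36 and 10.33 in the knockdown samples. The groups stood more than a log2 unit apart, and no knockdown sample came near a control. The mean rose from 9.20 ± 0.03 to 10.35 ± 0.02 (SD, n = 3 each), a log2 difference of 1.15 (SE 0.03, 95% interval 1.08 to 1.21, adjusted p = 4.33e-15) or 2.21-fold. In bulk RNA, more expressing cells and more transcript per cell cannot be told apart. CLDN1 was the 1 gene of the 8 with a rise of at least 2-fold, which 2.60% of all genes tested showed. None of the 8 fell that far, against 2.22% of all genes. All 4 of its probe sets rose, by 1.15, 1.13, 1.16 and 1.13, although their control levels ran from 6.33 to 9.20. On the dimmest of them control replicate 1 read 6.06 and the other controls 6.52 and 6.41, below the lowest knockdown value of 7.40.

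CLDN4, which with CLDN3 is known as a receptor of an enterotoxin of Clostridium perfringens, moved the other way. Control samples read 9.85, 9.80 and 9.88, and knockdown samples 9.11, 9.07 and 9.09. All knockdown values lay below all control values, with a spread within groups that was small beside the gap. The mean fell from 9.84 ± 0.04 to 9.09 ± 0.02 (SD, n = 3 each), a log2 difference of -0.75 (SE 0.03, 95% interval -0.82 to -0.68, adjusted p = 2.61e-12), leaving 59.3% of the control level. Its other probe sets gave -0.68 and -0.78, so all 3 fell.

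CLDN3 lies next to CLDN4 on chromosome 7, with no other protein-coding gene between them in the RefSeq gene table. Its single probe set read 7.18, 7.15 and 7.06 in control and 7.33, 7.33 and 7.39 in knockdown. The groups did not overlap. The difference was 0.22 (SE 0.06, 95% interval 0.10 to 0.33, adjusted p = 0.00217), from a mean of 7.13 ± 0.07 to 7.35 ± 0.03 (SD, n = 3 each). Among the non-human controls the differences reached 0.22 in size, about that of this rise.

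CLDN7, a claudin that also lies along the basolateral membrane and binds EPCAM, kept nearly the same signal. Control samples read 9.17, 9.18 and 9.17, and knockdown samples 9.14, 9.07 and 9.15. The knockdown values were all slightly lower, without overlap, but the difference of -0.05 did not pass (SE 0.03, 95% interval -0.12 to 0.02, adjusted p = 0.211). The interval leaves room for a fall of up to 0.12 on the log2 scale. With quantile normalization the difference was -0.12 and passed (adjusted p = 0.00603), still within the range of the non-human controls.

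The claudins were also compared with each other within each array. The change of the log2 difference between members was 1.90 for CLDN1 against CLDN4, 1.20 for CLDN1 against CLDN7, 0.93 for CLDN1 against CLDN3 and 0.97 for CLDN3 against CLDN4. It was 0.27 for CLDN3 against CLDN7 and -0.70 for CLDN4 against CLDN7. In each of these 6 pairs the control and knockdown arrays did not overlap. For single genes this was so for 70.3% of all tested, and the share over other gene pairs is not given here. The pairs share genes and arrays, so they do not count as separate results. The two-sided exact permutation test over samples gave p = 0.1 for every pair, also after adjustment over the 6, which is the smallest p that 3 against 3 allows.

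OCLN encodes occludin. On the chosen probe set control samples read 6.67, 6.64 and 6.53, and knockdown samples 6.78, 6.77 and 6.76. The knockdown values were tightly grouped and just above the controls. The difference of 0.16 (SE 0.06, 95% interval 0.03 to 0.29) passed narrowly (adjusted p = 0.0344), and it lay inside the range of the non-human controls. In the fit over all human probe sets the same probe set did not pass (adjusted p = 0.0537). The call was lost when control replicate 3 was left out (0.11, adjusted p = 0.1) and when knockdown replicate 1 (0.0924), 2 (0.0738) or 3 (0.0671) was left out. A second, dimmer probe set rose by 0.37, from 5.66 ± 0.17 to 6.02 ± 0.02 (SD, n = 3 each). A further probe set shared with the pseudogene OCLNP1 read 6.39 ± 0.04 in control and 6.40 ± 0.07 in knockdown and did not pass.

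MARVELD2, or tricellulin, seals the corners where 3 cells meet, and its gene is the immediate protein-coding neighbour of OCLN on chromosome 5. Control samples read 7.29, 7.12 and 7.06, and knockdown samples 7.18, 7.14 and 7.15. The knockdown values lay inside the control range. The log2 difference was 0.00 (SE 0.06, 95% interval -0.13 to 0.13, adjusted p = 0.993). The other probe sets, at control means of 5.80 and 3.89, gave 0.16 and 0.14 and did not pass either.

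TJP1 encodes ZO-1, the PDZ-domain scaffold that binds the claudin tails. The bright probe set read 10.74, 10.79 and 10.78 in control and 10.37, 10.39 and 10.39 in knockdown, with no overlap. It fell by 0.38 (SE 0.03, adjusted p = 6.84e-10), leaving 76.7% of the control level. The second probe set went the opposite way. It read 7.40, 7.53 and 7.49 in control and 7.80, 7.79 and 7.83 in knockdown, a rise of 0.34 that passed among all probe sets (adjusted p = 4.05e-05). With the mean of both the difference was -0.02 (adjusted p = 0.541). The direction of TJP1 therefore depends on the probe set, and which transcripts each one reads was not tested.

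CGN encodes cingulin, which links ZO-1 to actomyosin. Control samples read 8.74, 8.71 and 8.71, and knockdown samples 8.34, 8.40 and 8.49. Knockdown values were lower without overlap, with the wider spread on the knockdown side. The mean fell from 8.72 ± 0.02 to 8.41 ± 0.07 (SD, n = 3 each), a difference of -0.31 (SE 0.04, 95% interval -0.40 to -0.22, adjusted p = 5.17e-06). A second probe set gave -0.33. The third gave -0.18, where knockdown replicate 3 (7.44) exceeded control replicate 2 (7.41).

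Across all 19 probe sets of the 8 genes, 7 were higher, 7 lower and 5 did not pass in the fit over all human probe sets, in which 48.2% of 49293 passed, 24.1% higher and 24.1% lower. Of the 6 genes with more than 1 probe set, CLDN1, CLDN4 and CGN had all of them called the same way. The share of all genes for which this is so is not given here, so the count is no result about these genes as a set.

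**Figure D2:**
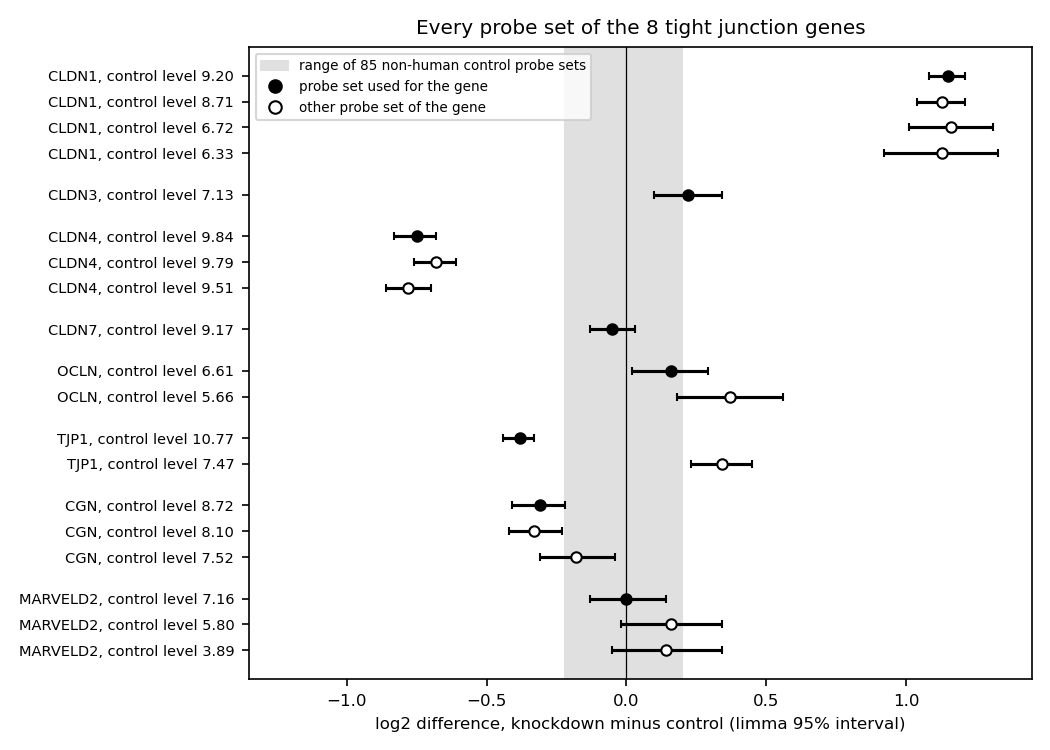
Log2 difference, knockdown minus control (horizontal axis), with limma's 95% interval for each of the 19 probe sets, filled for the one used for the gene. The grey band spans the 85 non-human control probe sets, -0.22 to 0.20. All CLDN1 and CLDN4 probe sets lie outside it, and those of TJP1 lie on opposite sides of 0.

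Profiles most like those of the largest mover in each direction were sought over the 6 arrays, by the root mean square difference of values centred on each gene's own mean. Nearest to CLDN1 were CPSF2 (0.0112), COPS8 (0.0142) and ADORA2B (0.0155), with log2 differences of 1.14, 1.15 and 1.13. For CLDN4 the nearest were CARD6 (0.0127), FECH (0.0167) and GALNT7 (0.0202), with -0.75, -0.76 and -0.77. With only 2 groups this likeness rests mostly on the size of the step between them.

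Other claudins also went both ways. Of 20 further claudin genes, 18 had a probe set, 9 were tested, 2 rose and 2 fell (median -0.06, beside -0.03 for all genes tested). CLDN12, a claudin without the usual PDZ-binding tail, rose by 0.97 (7.34 ± 0.11 to 8.31 ± 0.06, SD, n = 3 each), although its other probe set stood at -0.05 and did not pass. CLDN15, a cation-pore claudin, fell by 0.66 on the probe set used, and both of its probe sets were lower. CLDN9 fell by 0.50, and CLDN23 rose by 0.39. CLDN16, the neighbour of CLDN1 on chromosome 3, had a log2 difference of 0.04 and did not pass (5.31 ± 0.13 and 5.35 ± 0.02, SD, n = 3 each). The 4 called of 9 tested (44.4%) compare with 66.5% of all genes.

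Of other membrane proteins of the junction, 7 of 9 were tested, 1 rose and 2 fell (median -0.06), so 42.9% were called, beside 66.5% of all genes. MARVELD3, the remaining MARVEL-domain protein of the junction, fell by 0.65 on the probe set used, and all 3 of its probe sets were lower, by up to 0.98. JAM3 (JAM-C), an adhesion molecule related to F11R, fell by 0.62, and both of its probe sets were lower. CXADR, the coxsackievirus and adenovirus receptor, rose by 0.22 on the probe set used, about the size of the largest non-human control difference. All 4 of its probe sets were higher, by up to 0.72. LSR, which recruits tricellulin to cell corners, had a difference of 0.05 and did not pass (adjusted p = 0.219).

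Among other scaffolds, 11 of 16 were tested, 2 rose and 4 fell (median -0.08), or 54.5% called, beside 66.5% of all genes. AFDN, or afadin, which joins nectins and ZO-1 to actin, rose by 0.62 on the probe set used, and 3 of its 7 probe sets were higher. MAGI3 fell by 0.46, with 1 of 2 probe sets lower, and TJP3 (ZO-3) fell by 0.40 (5.70 ± 0.07 to 5.29 ± 0.21, SD, n = 3 each). PATJ, the scaffold of the Crumbs complex, fell by 0.16 on the probe set used, within the range of the non-human controls. All 7 of its probe sets were lower, by up to 0.51. CGNL1, the paralogue of cingulin, had a difference of 0.00 and did not pass.

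The complexes that set the apical side were tested in full, 15 of 15 genes, and 5 rose and 7 fell (median -0.14). The 12 called are 80% of the list, beside 66.5% of all genes (32.4% higher and 34.1% lower). SCRIB, of the basolateral Scribble complex, rose by 0.70 with 3 of 3 probe sets higher. PARD6B, a PAR complex adaptor, fell by 0.69, with 1 of 2 probe sets lower. LLGL2, a partner of SCRIB, fell by 0.63, but its other probe set was called higher, at 0.29. The atypical kinase genes PRKCI and PRKCZ, which phosphorylate junction proteins, fell by 0.30 and 0.21, the latter within the range of the non-human controls. PARD3, of the PAR complex, rose by 0.58, with 1 of 4 probe sets higher.

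**Figure D3:**
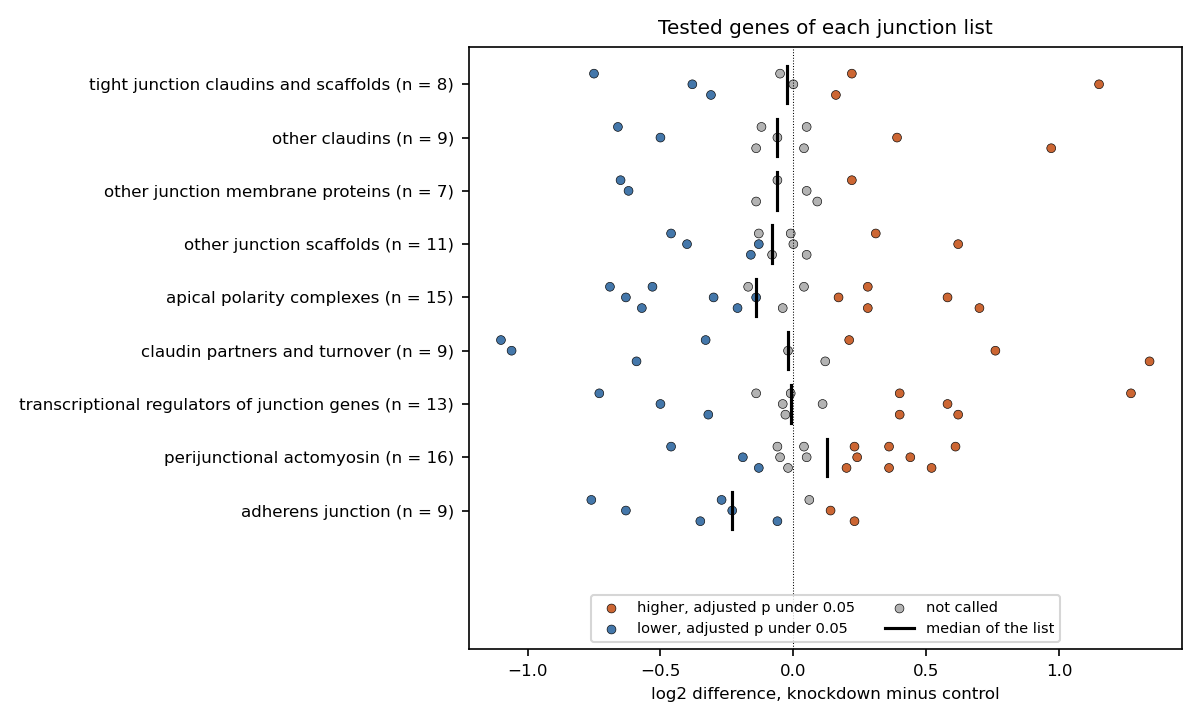
Log2 difference, knockdown minus control (horizontal axis), of every tested gene of the tight junction set and of 8 lists of related genes, coloured by call, with the median of each list as a bar. Each list holds genes called in both directions, and list medians lie between -0.23 and 0.12.

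Genes for claudin partners and for the turnover of junction proteins held some of the larger differences in these lists. Of 11 genes, 9 were tested, 3 rose and 4 fell (median -0.02), or 77.8% called, beside 66.5% of all genes. Over all genes tested, 2.60% were called with a rise of at least 2-fold and 2.22% with such a fall. EPHA2, a receptor kinase that can phosphorylate claudin-4, rose by 1.34 (9.75 ± 0.04 to 11.09 ± 0.02, SD, n = 3 each) on both probe sets. The membrane protease genes PRSS8 (prostasin) and ST14 (matriptase) fell by 1.10 and 1.06, with 5 of 5 and 2 of 2 probe sets lower. Matriptase is known to cleave EPCAM and so to release claudin-7. The inhibitor genes SPINT1 and SPINT2 fell by 0.59 and 0.33. ITCH, a ubiquitin ligase that binds occludin, rose by 0.76, with 3 of 4 probe sets higher. EPCAM rose by 0.21, with 3 of 3 probe sets higher, a change within the size of the largest control difference.

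Of the transcription factors that act on junction genes, 13 of 15 were tested, 5 rose and 3 fell (median -0.01), so 61.5% were called, near the 66.5% of all genes. SNAI2, a repressor of epithelial genes that binds the E-box letters shown above, rose by 1.27 on its single probe set (6.90 ± 0.14 to 8.17 ± 0.08, SD, n = 3 each). ZEB1, a repressor with the same target letters, rose by 0.40, and all 7 of its probe sets were higher. OVOL2, known as a repressor of ZEB1 that favours the epithelial state, also rose by 0.40 (adjusted p = 2.32e-06), with 2 of 2 probe sets higher. KLF4, an epithelial differentiation factor, rose by 0.58, again with 2 of 2 probe sets higher. SNAI1 (-0.01) and TWIST1 (-0.04) did not pass. GRHL1 and GRHL2, grainyhead-like activators of junction genes, fell by 0.73 and 0.50, with 3 of 3 and 2 of 5 probe sets lower. EHF, an epithelial ETS factor, rose by 0.62, with 3 of 8 probe sets higher. ELF3, of the same list, fell by 0.32, with 3 of 3 probe sets lower.

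The actin belt beside the junction was tested in full, 16 of 16 genes, with 8 higher and 3 lower (median 0.12). That is 68.8% called, near the 66.5% of all genes. The crosslinker ACTN1 rose by 0.61, with 6 of 7 probe sets higher, VASP, which promotes actin filament growth, by 0.52, and the myosin light chain kinase MYLK by 0.44. MYH14, a non-muscle myosin heavy chain, fell by 0.46, with 1 of 2 probe sets lower. In the adherens junction, which lies just below, 9 of 10 genes were tested, 2 rose and 6 fell (median -0.23). The share called was 88.9%, beside 66.5% of all genes, of which 34.1% were lower. The nectins NECTIN4, NECTIN2 and NECTIN1 fell by 0.76, 0.63 and 0.35 on the probe sets used. For NECTIN4, 2 of 3 probe sets were lower, and for NECTIN2, 1 of 2, the other standing at 0.03. For NECTIN1, 3 of 4 were lower and 1 was called higher, at 0.35. E-cadherin (CDH1) rose by 0.23, with both probe sets higher.

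**Figure D4:**
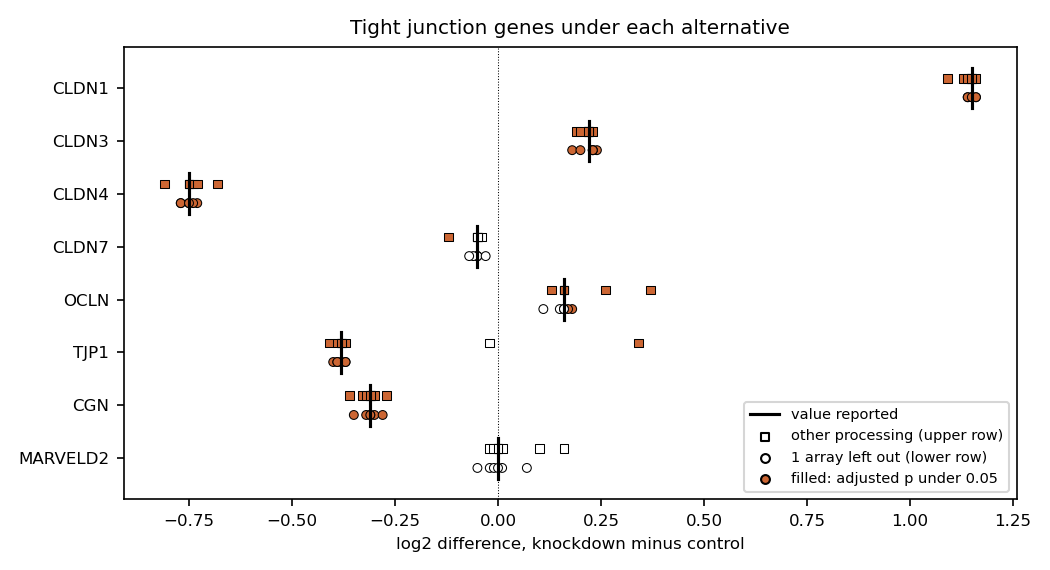
Log2 difference, knockdown minus control (horizontal axis), of the 8 genes under other processing settings (squares) and with each array left out (circles), filled where adjusted p was under 0.05. CLDN1 stayed between 1.09 and 1.16 and CLDN4 between -0.81 and -0.68, whereas TJP1 ranged from -0.41 to 0.34.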

How the data were processed

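Total RNA of 6 samples was hybridised to an Affymetrix array. The table deposited by the authors holds log2 signals of 49395 probe sets on each array. The software is MAS5 (version not given), per the submitters' processing notes. Its further handling is not given in the sources used here. That values are log2 was read from their range, 1.95 to 14.14. Array medians were nearly equal, so values were used as deposited; such scaling removes any change common to the whole transcriptome. With 3 arrays a group, precision is limited by their number.

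Gene names came from the platform annotation; 44988 carry 1 symbol, 1832 several and 2473 none. Of the first, 44961 were found by Entrez ID in the RefSeq table (GRCh38.p14), where BVES is POPDC1. Each gene took its probe set with the highest mean over the 6 arrays, and the lowest 25% of genes by mean (below 4.63) were left out. Both groups were compared with limma 3.58.1 (R 4.3.3; lmFit, eBayes with intensity trend, Benjamini-Hochberg over all genes, threshold 0.05), which was tested on simulated data. Single probe sets come from the same model over 49293 human probe sets, where adjusted p can differ from the gene fit. Intervals of 95% are limma's.

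The members and lists were chosen with earlier results of these data known. Named are all members and, per list, up to 3 called genes of largest change. CLDN23, CLDN16, LSR, PATJ, CGNL1, PRKCI, PRKCZ, PARD3, SPINT1, SPINT2, ITCH and EPCAM were added after their values were seen. So were ZEB1, OVOL2, KLF4, ELF3, SNAI1, TWIST1, GRHL2, MYLK and CDH1, and the markers KRT5, KRT14, KRT18 and PKP1. RefSeq promoter windows matched 8 of the 9 genes. Alternatives were the replicate number as a block, array weights, robust eBayes, eBayes without the trend, a filter at 50% or none, centring on medians, quantile normalization, averaged probe sets, a member's second probe set, and leaving out 1 array at a time.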

Additional observations from a re-analysis of the deposited data

How the results depend on the processing

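CLDN1, CLDN3, CLDN4 and CGN kept their direction and call under every alternative run, with log2 differences of 1.09 to 1.16, 0.18 to 0.24, -0.81 to -0.68 and -0.36 to -0.27. MARVELD2 (-0.05 to 0.16) passed under none. TJP1 turned to 0.34 with its second probe set and stood at -0.02 (adjusted p = 0.541) with the mean of both, which follows from probe sets of opposite sign. CLDN7 passed with quantile normalization, at -0.12, and the cause was not tested. OCLN ranged from 0.11 to 0.18 with 1 array left out and lost its call in 4 of 6 such fits; it lies under the 50% filter and has no value there. With 1 array left out, 2 to 3 members were higher and 3 lower. Without a filter 7 other claudins were called in place of 4, since more genes were tested, and with the mean of probe sets 6 other membrane proteins in place of 3; the cause was not tested. Samples with the same replicate number deviated together weakly (correlations 0.08, 0.13 and 0.23), while those with different numbers gave -0.18 to 0.10. Each knockdown sample correlated best with the control of its own number, but control replicate 1 correlated best with knockdown replicate 2 (0.10 against 0.08). The labels state no pairing and these weak values do not settle it, so the numbers were not taken as pairs. With the replicate number as a block 9307 genes were called in place of 9037, and members stayed at 3 higher and 3 lower. Detection calls were not used here, so folds of dim probe sets are uncertain.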
